A study of Lemna gibba and Lemna japonica and Spirodela polyrhiza with 12 samples.

Results

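Small RNA loci of the 22 nt class that lie outside microRNA hairpins and were called on a single strand were examined in 4 duckweeds. Such a call does not show that the other strand gave no reads. A locus was taken where the deposited list named 22 nt as its dominant size, was not a microRNA hairpin, carried a plus or minus strand call and lay on a numbered chromosome. This gave 2113 loci of 79572 listed in all. The loci were thus chosen by measured values, the size and strand calls, which come from the same libraries, so the share of loci that met the rule is given as a description. The plants were Lemna gibba (accession Lg7742a), Lemna japonica (Lj8627), Spirodela polyrhiza (Sp9509) and Wolffia australiana (Wa8730). All were grown as sterile cultures in medium with sucrose under a long photoperiod and harvested as whole fronds, and no treatment or mutation was part of the series. From each accession 3 biological replicates were sequenced, which gave 12 libraries, and each deposited list pools the 3 of its accession. Neither a spread between replicates nor a test between accessions could therefore be had. Intervals given with shares are 95% Wilson intervals and cover counting error only. Whole fronds mix cell types, so few cells with many reads and many cells with few cannot be told apart.

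In plants, Dicer-like enzymes cut small RNAs of set lengths from double-stranded RNA. The 22 nt length is known in Arabidopsis as the product of DCL2, which uses long double-stranded RNA and makes small interfering RNAs from both strands. MicroRNAs are cut from a folded transcript, so that their reads come from a single strand, and microRNAs of 22 nt are known in Arabidopsis to trigger the production of secondary small interfering RNAs from their targets. Inverted repeats that fold back on themselves also give single-strand reads, as do fragments of ordinary transcripts. The lists do not tell these sources apart. No genome sequence was used, so the loci are given by position and not by sequence or gene.

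Lj8627 had most of the loci. It held 1256 of the 2113, of which 460 lay on the chromosomes whose names end in M and 796 on those whose names end in T. Lemna japonica is a hybrid of Lemna minor and Lemna turionifera, and its assembly keeps both chromosome sets apart by these letters. Lg7742a had 366 loci, Wa8730 had 253 and Sp9509 had 238. The whole lists differed in size, from 6315 loci for Sp9509 to 37162 for Wa8730. The selected loci made up 0.681% of the Wa8730 list and 3.77% of the Sp9509 list. For Lg7742a this share was 3.65%. Lj8627 reached 4.82%, made up of 8.77% of the loci listed on T but only 2.9% of those on M. By share of listed loci, M thus lay below both Lg7742a and Sp9509. Per Mb of chromosome, counted up to the last listed locus, there were 1.92 loci on T, 1.72 in Sp9509, 1.37 on M, 0.755 in Lg7742a and 0.72 in Wa8730.

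Reads were ordered otherwise. The 238 loci of Sp9509 held 616081 reads, 8.56% of all reads in its list (8.54 to 8.58). The 1256 loci of Lj8627 held 100147 reads, 1.86% of its list. The loci of Wa8730 held 72615 reads, 1.29% of its list, and those of Lg7742a held 34447 reads, 0.688%. Sp9509, with the fewest loci, thus had the most reads in them. Within the 22 nt class outside hairpins, single-strand loci took 94.7% of the reads in Sp9509, 74.2% in Wa8730, 43.2% in Lg7742a and 38.3% in Lj8627. Hairpins of the 22 nt class, which are not counted here, numbered 2 in Sp9509 with 1196227 reads, 6 in Wa8730 with 470488, 4 in Lg7742a with 418542 and 8 in Lj8627 with 625608.

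Most loci were shallow and a few were deep. Reads per locus ran between 3 and 12884 in Lg7742a with a median of 5. On M chromosomes they ran between 3 and 47206 with a median of 6, and on T chromosomes between 3 and 3474 with a median of 10. Sp9509 had 5 to 112634 reads per locus and a median of 16, Wa8730 had 4 to 19790 and a median of 10. Loci with at least 10 reads made up 71.8% of the loci of Sp9509, 50.6% of those of Wa8730, 50.6% of those on T, 25.4% of those on M and 22.4% of those of Lg7742a. At least 1000 reads were found in 24 loci of Sp9509, 14 of Lj8627, 8 of Wa8730 and 6 of Lg7742a. The 5 deepest loci held 81.2% of the reads of all such loci in Lg7742a, 78.7% on M, 75.8% in Sp9509, 72.4% in Wa8730 and 40.4% on T. Reads on T were thus spread over more loci than in the other lists.

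**Figure D1:**
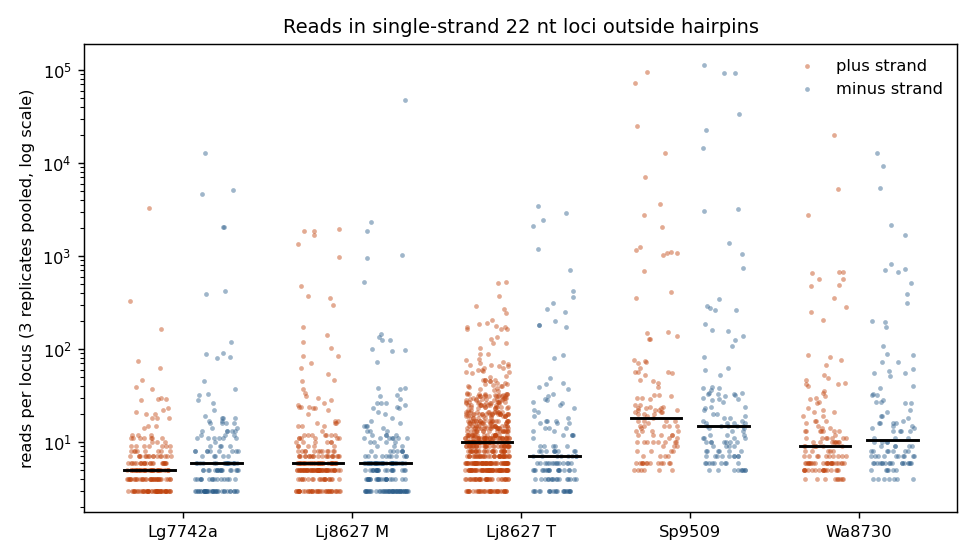
Reads per single-strand 22 nt locus outside hairpins, 3 replicates pooled, on a log axis, with the M and T chromosomes of Lj8627 apart; each point is a locus, red on the plus and blue on the minus strand, and black bars are medians. The plus strand of T stands out by its number of points, 655, between 3 and 521 reads, while the deepest loci are those of Sp9509 with up to 112634 reads.

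Listed length was short and uniform. The median was 421 bp on M and 422 bp in each of the other lists, and the shortest locus was 401 bp in all. The most frequent length was 422 bp in every list: 40.4% of the loci of Lg7742a, 38.2% of those of Sp9509, 26.5% of those of Wa8730, 21.3% of those on M and 17.2% of those on T had exactly this length. Single-strand 21 nt loci had 421 bp as their most frequent length and single-strand 24 nt loci 424 bp in every list, so this length moved with the size class base for base. Among 22 nt loci on both strands 422 bp was the most frequent length too, but took a smaller share, between 4.49% in Sp9509 and 11.3% in Lg7742a. The sources used here do not give the margin kept around the reads of a locus.

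Deeper loci were mostly longer. All loci of 3 or 4 reads were at most 422 bp long. Among loci with at least 100 reads the median was 984 bp in Lg7742a, 848 bp on T, 828 bp on M, 642 bp in Sp9509 and 428 bp in Wa8730. In Wa8730, 20 of its 30 loci of this depth did not exceed 500 bp, against 2 of 11 in Lg7742a, 8 of 25 on M, 5 of 35 on T and 15 of 44 in Sp9509. Deep loci of Wa8730 were thus compact where those of the Lemna accessions were mostly extended.

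The share of 22 nt loci outside hairpins that fell on a single strand was 40.9% in Lg7742a (37.7 to 44.1), 40.1% in Sp9509 (36.2 to 44.1), 37.8% on T (35.8 to 39.9), 32.7% on M (30.3 to 35.2) and 28.9% in Wa8730 (26.0 to 32.0). It depended on depth. In Sp9509 it was 63.8% at 5 to 9 reads, 30.4% at 10 to 29 reads, 29.7% at 30 to 99 reads and 64.7% at 100 or more. In Wa8730 the same steps gave 30.7%, 19.5%, 35.4% and 47.6%, and in Lj8627 they gave 39.6%, 30.1%, 28.8% and 39.7%. Lg7742a differed in form, with 45%, 33.1%, 16.5% and 17.5%, so that its deep 22 nt loci mostly had reads on both strands. With few reads, sampling alone can leave a locus without reads from its other strand.

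Other size classes at the same depth gave other shares. Among loci of 100 or more reads, the single-strand share of 22 nt loci was below that of 21 nt loci in Lg7742a (17.5% and 63.3%) and in Lj8627 (39.7% and 65.6%). In Sp9509 it was above it (64.7% and 39.8%), and in Wa8730 both were close (47.6% and 45.9%). The intervals of 22 and 21 nt loci did not overlap in the first 3 of these accessions and overlapped in Wa8730, at 35.8 to 59.7 and 39.3 to 52.7. Loci with no size call were on a single strand in 91.6% to 96.5% of cases at this depth. Loci of 24 nt, the class known in plants to guide DNA methylation, were on a single strand in 1.15% of 697 cases in Wa8730 and 12% of 108 in Sp9509, but in 18 of 19 cases in Lg7742a and 4 of 5 in Lj8627.

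**Figure D2:**
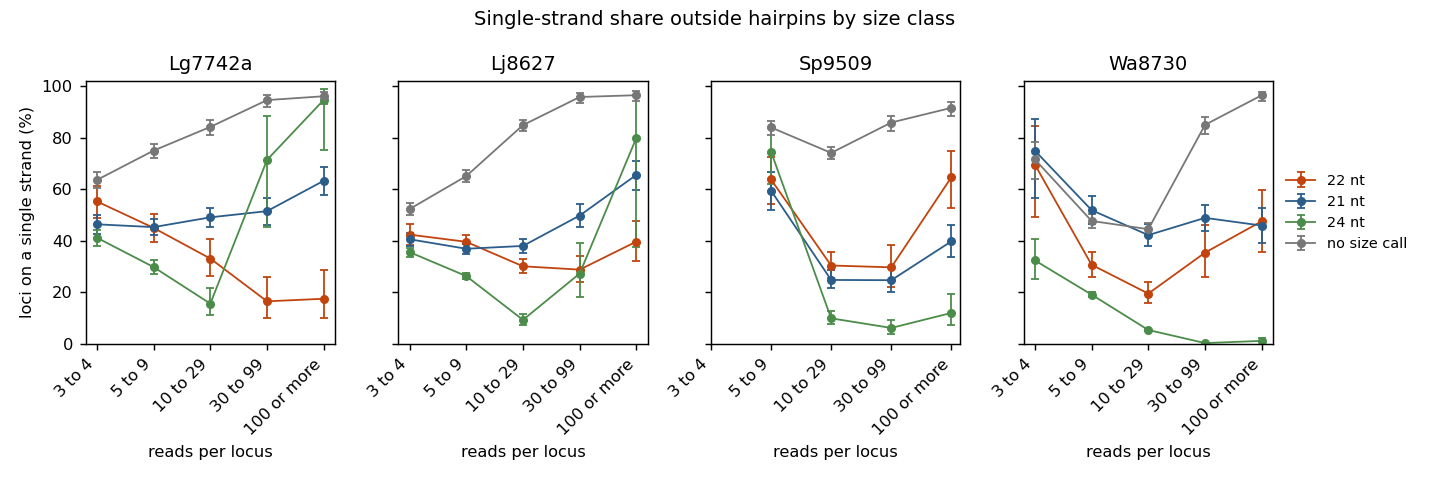
Share of loci outside hairpins called on a single strand, in percent, against reads per locus, for 22 nt, 21 nt, 24 nt and uncalled loci of each accession; bars are 95% Wilson intervals. At 100 or more reads the 22 nt class lies lowest in Lg7742a at 17.5% and highest in Sp9509 at 64.7%; Sp9509 lists no locus under 5 reads.

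Which strand was called played no part in the rule. On T chromosomes 655 loci were on the plus and 141 on the minus strand, a plus share of 82.3% (79.5 to 84.8). On M chromosomes there were 256 and 204, a share of 55.7% (51.1 to 60.1). The share was 58.7% in Lg7742a (53.6 to 63.7), 55.7% in Wa8730 (49.6 to 61.7) and 50.8% in Sp9509 (44.5 to 57.1). In Lg7742a the plus lean was that of shallow loci, with 62.5% at 3 to 4 reads (54.1 to 70.2) and 63.5% at 5 to 9 (55.5 to 70.8). It was 47.4% of 57 loci at 10 to 29 reads (35.0 to 60.1) and 42.9% of 14 at 30 to 99 (21.4 to 67.4). At 100 or more reads it was 27.3% of 11 loci (9.75 to 56.6). Each interval at 10 reads and above held 50%. Over all depths T chromosomes departed far from an even division, and the intervals of all other lists lay below that of T.

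A part of the plus excess went with particular read counts. Loci whose reads came to a multiple of 5 had a plus share of 68.6% in Lg7742a (57.0 to 78.2), against 56.4% at all other read counts (50.7 to 61.9). On M the shares were 70.4% (61.2 to 78.2) and 51.1% (45.9 to 56.3). In Wa8730 they were 65.4% (51.8 to 76.8) and 53.2% (46.3 to 60.0), in Sp9509 54.8% and 49.4%, and on T 88.5% and 80.3%. The intervals overlapped in Lg7742a, Wa8730 and Sp9509 but not on M. Single read counts did not all follow. In Lg7742a loci of 4, 5 and 6 reads were plus in 70.6%, 69% and 56.1% of cases, and on T in 68%, 78.6% and 81.6%. Loci of 24 nt differed more between multiples of 5 and other counts, with 83.1% against 55.2% on M and 85.3% against 57.2% on T. Loci with no size call differed less, with 55.7% (51.1 to 60.2) against 50.9% in Lg7742a, 53.0% against 51.1% on M and 55.4% against 54.1% on T. At exactly 5 reads, however, uncalled loci on M were plus in 64.4% of cases (57.1 to 71.1), against 50.9% at 4 reads and 53.8% at 6. The sources used here do not give the rule behind the strand call, and the part of these read counts in the calls was not tested beyond leaving them out.

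With multiples of 5 left out, the plus share stayed at 80.3% on T (76.9 to 83.3). The interval of M, which began at 51.1% over all loci, then held 50%, as those of Sp9509 and Wa8730 did with and without these read counts, and that of Lg7742a began at 50.7%. Over all read counts, multiples of 5 included, the plus share on T was highest at middle depth: 65.7% at 3 to 4 reads, 81.1% at 5 to 9, 91.2% at 10 to 29, 87.8% at 30 to 99 and 57.1% at 100 or more. On M the same steps gave 45.3%, 62.8%, 52.1%, 57.9% and 56.0%. Between 10 and 99 reads there were 49 plus and 43 minus loci on M, but 333 plus and 35 minus loci on T. With multiples of 5 left out, these numbers were 34 and 34 on M, a share of 50% (38.4 to 61.6), and 232 and 33 on T, a share of 87.5% (83.0 to 91.0).

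**Figure D3:**
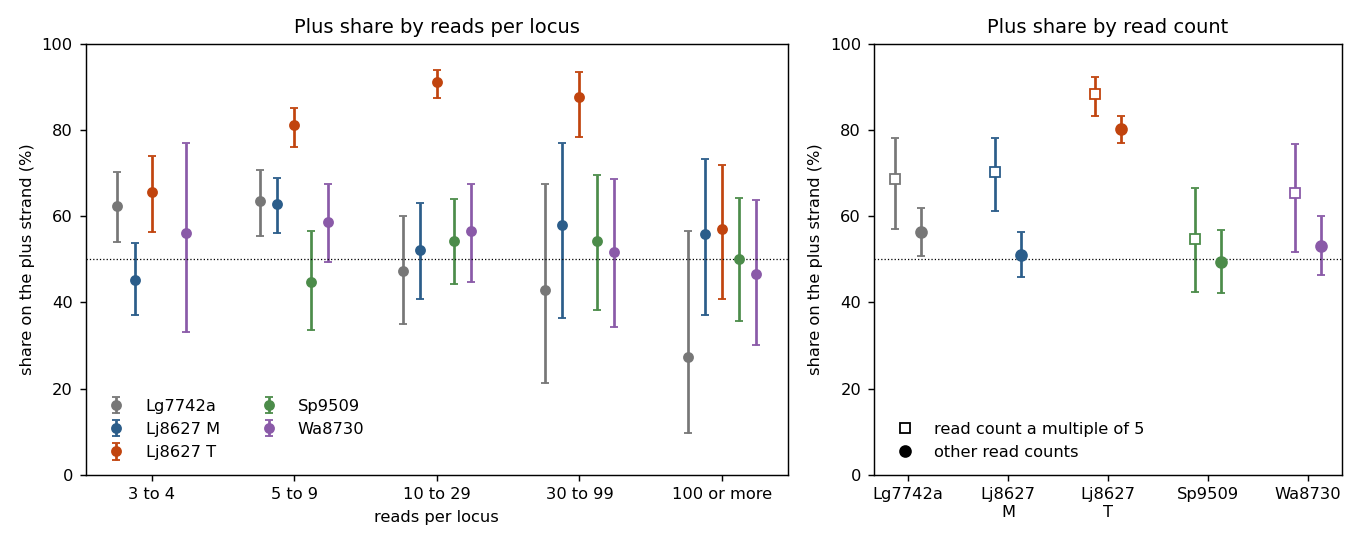
Left, share of single-strand 22 nt loci on the plus strand, in percent, by reads per locus; right, the same share for loci whose read count is a multiple of 5 (open squares) and for others (filled circles). Bars are 95% Wilson intervals and the dotted line marks 50%; T chromosomes reach 91.2% at 10 to 29 reads and stay at 80.3% without multiples of 5.

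Counted by strand, the chromosome sets of Lj8627 differed in opposite ways. Plus loci were fewer on M than on T, with 256 and 655 and an M to T ratio of 0.391 (0.338 to 0.452). Minus loci were more on M than on T, with 204 and 141 and a ratio of 1.45 (1.17 to 1.79). This direction was not particular to 22 nt loci, as 15872 loci of all kinds were listed on M and 9081 on T. Minus loci of other single-strand classes gave ratios of 1.43 for 21 nt, 2.89 for 24 nt and 1.4 for uncalled loci. Plus loci of these classes gave 0.939, 2.82 and 1.25. Both strands together gave a ratio of 0.578 (0.515 to 0.648), and loci of the 22 nt class on both strands gave 0.725 (0.667 to 0.788) with 948 and 1308. The lack of loci on M relative to T was therefore found among plus loci, not among minus loci. At 10 to 29 reads plus loci numbered 38 on M and 268 on T, while minus loci numbered 35 and 26. At 100 or more reads there were 14 and 20 plus loci and 11 and 15 minus loci.

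The pattern was not that of a few chromosomes. The plus share was lower on M than on T in 21 of 21 pairs of same-numbered chromosomes. Plus loci outnumbered minus loci on 21 of 21 T chromosomes and on 12 of 21 M chromosomes. T chromosomes ranged from 57.1% on chr3T, with 24 plus and 18 minus loci, to 100% on chr17T and chr21T, which had 9 and 8 loci. On chr7T, the densest of the 42 chromosomes of Lj8627 at 2.80 loci per Mb, 58 loci were plus and 6 minus, against 17 and 12 on chr7M. On chr11 there were 13 plus and 8 minus loci on the M chromosome, against 49 and 3 on the T chromosome. The 5 equal parts of T chromosomes, from the start to the last locus, held 143, 144, 149, 126 and 93 plus loci. Plus loci thus lay in all parts, with the fewest in the last. The fullest 1 Mb windows of T held 11 loci, of which the window on chr13T from 8000001 to 9000000 had all 11 on the plus strand.

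**Figure D4:**
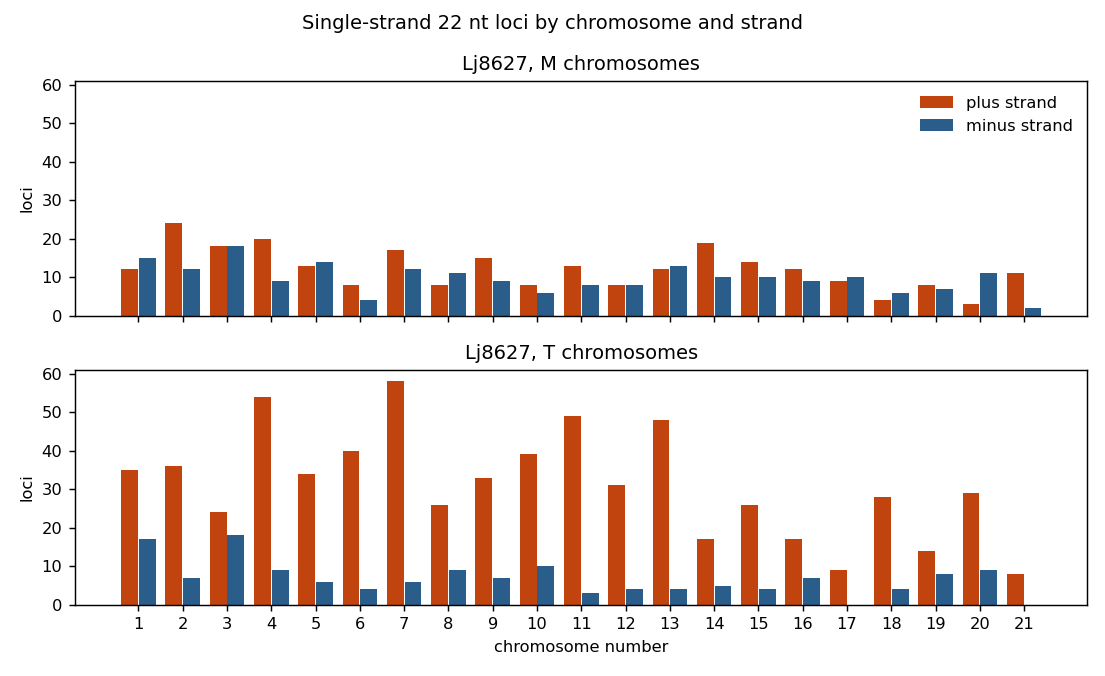
Number of single-strand 22 nt loci on each of the 21 M (top) and 21 T (bottom) chromosomes of Lj8627, by strand, red for plus and blue for minus. Plus bars exceed minus bars on 12 M and on all 21 T chromosomes, by most on chr7T with 58 and 6 loci.

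The plus loci of T differed in depth and length as well from its minus loci and from single-strand 22 nt loci of M. Such depth and length were not particular to them. The 22 nt loci of T called on both strands had a median of 12.5 reads, and 33.4% of them exceeded 600 bp. On M these values were 7 reads and 19.4%. Among single-strand loci the plus loci of T stood apart. The median of the plus loci was 10 reads, with quartiles at 6 and 19. Minus loci of T had a median of 7, and plus and minus loci of M each a median of 6. Loci over 500 bp were 31.9% of the plus loci of T and 15.6% of its minus loci, and 11.3% of either strand of M. The plus loci of T stopped at 521 reads, while 5 minus loci of T exceeded 1000. The 655 plus loci of T held 13414 reads and its 141 minus loci 16532.

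Among other size classes of Lj8627 the lean of T was weaker. Single-strand 21 nt loci were plus in 52.4% of cases on M (49.2 to 55.6) and in 66.5% on T (63.3 to 69.5) when multiples of 5 were left out. For 24 nt loci the shares were 55.2% (52.5 to 57.9) and 57.2% (52.7 to 61.5), and for loci with no size call 51.1% (48.7 to 53.5) and 54.1% (51.4 to 56.8). The interval of 22 nt loci on T, 76.9 to 83.3, lay above all of these. Over all read counts, 21 nt loci on T were plus in 75.6% of cases at 5 to 9 reads (71.1 to 79.5). That interval overlaps the one of 22 nt loci at this depth, 76.1 to 85.2. At 10 to 29 reads the shares of 21 and 22 nt loci on T were 74.0% and 91.2%. Of 80 plus 22 nt loci on T that had a single-strand 21 nt locus under 10 kb away, 73 had the nearest of these on the plus strand. Minus loci of T had 6 of 13 such neighbours on their own strand. On M, 20 of 30 plus loci and 10 of 22 minus loci had the nearest single-strand 21 nt neighbour on their own strand. Of all single-strand 21 nt loci, 68.1% on T and 58.5% on M were plus. The agreement to be had from these shares alone was not computed. The sources used here do not say where reads with several matching places were counted, and the part of such reads in the lean of T was not tested.

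Reads leaned the other way. Single-strand 22 nt loci held 70201 reads on M chromosomes and 29946 on T chromosomes, which gave an M to T ratio of 2.34. A single minus locus of 1074 bp on chr2M, from 13648707 to 13649780, held 47206 of these, 67.2% of the reads on M. Without the 10 deepest loci of Lj8627 the ratio of reads was 0.689. In 7 of 21 pairs more reads lay on M and in 14 more lay on T.

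The next deepest loci of M held far fewer reads. They were a minus locus of 2527 bp on chr7M from 7368136 to 7370662 with 2334 reads, a plus locus of 424 bp on chr2M from 14922924 to 14923347 with 1940, and a minus locus of 815 bp on chr2M from 14908502 to 14909316 with 1877. A plus locus of 1567 bp on chr3M from 36248 to 37814 followed with 1876 reads. The pair on chr2M had nearly equal reads on opposite strands, 13.6 kb apart. The longest locus of M was 2562 bp, on the plus strand of chr16M from 2169088 to 2171649, with 1704 reads.

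All 5 deepest loci of T were on the minus strand, against the lean of its other loci. The first pair lay together on chr19T, from 9472499 to 9473548 with 3474 reads and from 9474017 to 9474842 with 2877 reads. Then came a locus of 503 bp on chr14T from 4360061 to 4360563 with 2432 reads, a locus of 702 bp on chr2T from 17053326 to 17054027 with 2126, and a locus of 801 bp on chr1T from 28635308 to 28636108 with 1181. The longest locus of T was 3857 bp, on the minus strand of chr3T from 9976 to 13832, with 364 reads. It opened a group of 3 minus loci within 15711 bp that held 553 reads, the group with most members in Lj8627 together with 3 others of 3 members on chr1M, chr4M and chr15M.

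In Sp9509 the reads came mostly from a single stretch of chr12. Neighbouring single-strand 22 nt loci under 25 kb apart, from 319408 to 371850, formed a stretch of 52.4 kb with 8 loci and 422944 reads. These were 68.7% of the reads in single-strand 22 nt loci of Sp9509 and 5.88% of all reads in its list. The stretch was chosen after its values were seen. Of its loci, 4 were of like depth: 112634 reads on the minus strand from 320383 to 321021, 93515 on the minus strand from 329082 to 329930, 93544 on the minus strand from 348942 to 349510 and 94560 on the plus strand from 369673 to 370670. The last 3 of these were nearly equal, on different strands. Where reads with several matching places were counted is not given. Whether loci of nearly equal depth, here or in the other lists, share reads was not tested. A further plus locus, from 324854 to 325735, held 25338 reads.

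The other 3 loci of the stretch were shallow and each lay beside a deep one on the same strand. Beside the locus of 112634 reads lay one of 737 reads, 239 bp away. Beside that of 93544 reads lay one of 1377, 312 bp away, and beside that of 94560 reads one of 1239, 335 bp away. In all 3 cases the shallow locus was downstream of the deep one along its strand, and the deep one had between 67.9 and 153 times as many reads. Over all accessions, consecutive single-strand 22 nt loci on the same strand under 1 kb apart had more reads upstream in 21 of 34 cases. A ratio of over 10 times was found in 3 of the 34, all in this stretch.

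Loci of other kinds lay between them. A microRNA hairpin of 205 bp on the minus strand, from 318253 to 318457, held 27717 reads and lay before the first locus of the stretch. Single-strand 21 nt loci from 325884 to 326655, on the plus strand, and from 346017 to 346705, on the minus strand, held 18085 and 70574 reads. The remaining listed loci within the stretch held between 24 and 185 reads. The deep loci of the stretch were thus a mix of single-strand 22 nt and 21 nt loci, with plus and minus calls among each.

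A second stretch of Sp9509 lay on chr7 from 3689408 to 3709803 and was of another form. Its 3 loci were all on the plus strand and long: 3218 bp with 12933 reads, which was also the longest single-strand 22 nt locus of Sp9509, 1753 bp with 7016 reads, and 2451 bp with 72887 reads. A 22 nt locus on both strands with 3471 reads lay between them. Both stretches together held 83.7% of the reads. The other 227 loci of Sp9509 held 100301 reads, 1.39% of all reads in its list.

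**Figure D5:**
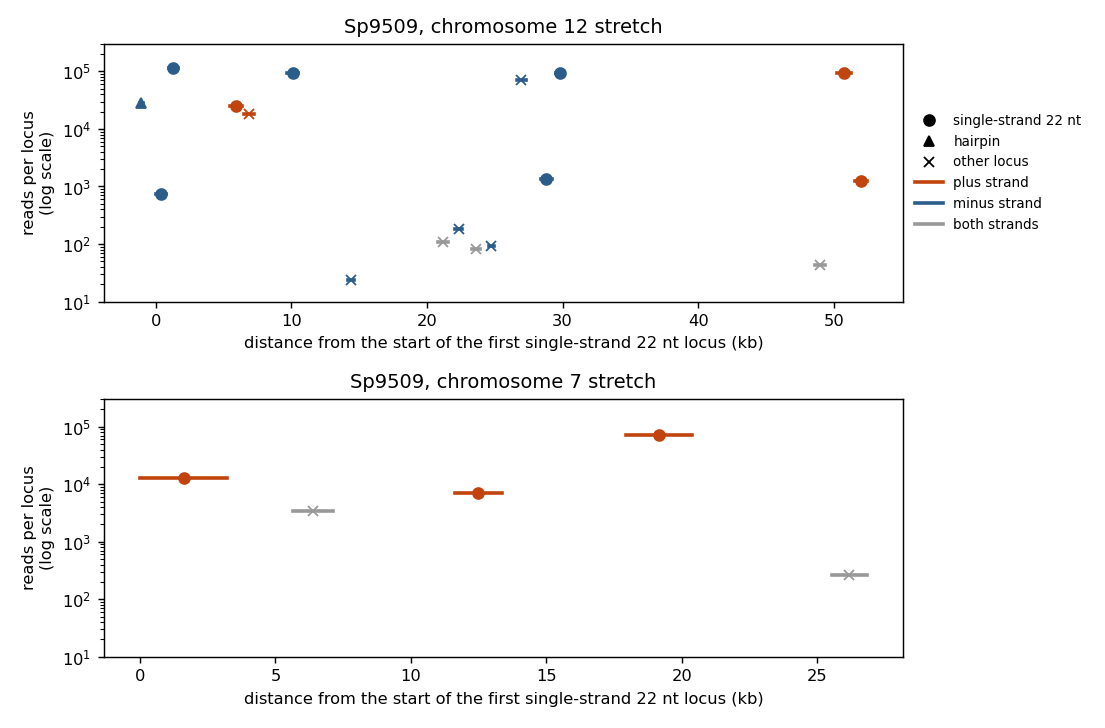
Reads per listed locus (log axis) against distance in kb from the start of the first single-strand 22 nt locus, for the chr12 (top) and chr7 (bottom) stretches of Sp9509. Circles are single-strand 22 nt loci, the triangle is a hairpin and crosses are other loci, with line length showing locus length; on chr12 4 circles lie between 93515 and 112634 reads and each of 3 shallow ones sits beside a deep one.

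Neighbours of the same kind were most frequent in Sp9509 under 10 kb. Another single-strand 22 nt locus was found under 10 kb away for 13.4% of its loci (9.69 to 18.4). That share was 9.17% on T (7.36 to 11.4, which overlaps), 8.04% on M (5.89 to 10.9, which overlaps too), 5.53% in Wa8730 and 5.19% in Lg7742a. Denser lists have more neighbours by position alone, and the shares were not adjusted for density. Density was 1.92 loci per Mb on T, 1.72 in Sp9509, 1.37 on M, 0.755 in Lg7742a and 0.72 in Wa8730. Under 50 kb the order of Sp9509 and T turned, with 25.6% in Sp9509 (20.5 to 31.5) and 26.6% on T (23.7 to 29.8). Groups of loci under 10 kb apart numbered 14 in Sp9509 and held 84.7% of the reads, against 53 groups with 9.94% of reads in Lj8627, 9 with 12.3% in Lg7742a and 7 with 1.15% in Wa8730. The group with most members was that of 4 loci on chr12 of Sp9509, from 319408 to 329930, inside the stretch described above, on the chromosome that was also the densest at 3.21 loci per Mb. In Lg7742a it was a group of 3 plus loci on chr16 from 3091056 to 3093544 with 19 reads in all, and in Wa8730 no group exceeded a pair. Of adjacent loci under 10 kb apart, 15 of 18 in Sp9509, 12 of 20 on M, 32 of 37 on T, 7 of 10 in Lg7742a and 6 of 7 in Wa8730 shared a strand.

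In Lg7742a 5 loci carried most reads, and 4 of them were on the minus strand. The deepest was also the longest, a minus locus of 4567 bp on chr13 from 20352981 to 20357547 with 12884 reads. A minus locus of 499 bp on chr2 from 17036148 to 17036646 held 5111 reads, a minus locus of 426 bp on chr4 from 4771637 to 4772062 held 4636, and a plus locus of 1090 bp on chr18 from 11750379 to 11751468 held 3281. On chr12 a minus locus from 5343767 to 5345201 held 2048 reads, and the sixth in depth, from 5347397 to 5349271 on the same strand, held 2037. The densest chromosome was chr19 at 1.05 loci per Mb. Although plus loci were more in number, they held 15.6% of the reads.

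In Wa8730 the deepest loci lay on separate chromosomes. They were a plus locus of 1127 bp on chr15 from 2912365 to 2913491 with 19790 reads, a minus locus of 863 bp on chr18 from 676687 to 677549 with 12870, a minus locus of 425 bp on chr5 from 2946299 to 2946723 with 9279, a minus locus of 429 bp on chr2 from 10124129 to 10124557 with 5351, and a plus locus of 1001 bp on chr10 from 3340080 to 3341080 with 5290. The longest was 1597 bp, on the plus strand of chr3 from 3463119 to 3464715, with 2794 reads. Pairs of nearly equal depth and length occurred here too, chosen after their values were seen. On chr1 plus loci of 426 and 425 bp, 47064 bp apart, held 674 and 671 reads, and on chr13 minus loci of 425 and 426 bp held 733 and 669. Its densest chromosome was chr5, at 1.06 loci per Mb.

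Which other loci lay near differed between the lists. A 24 nt locus lay under 10 kb from 53.0% of the single-strand 22 nt loci of Wa8730, 32.8% of those on M, 9.02% of those of Lg7742a, 7.16% of those on T and 6.30% of those of Sp9509. Of the 22 nt loci on both strands, 68.7% had one in Wa8730, 33.2% on M, 14.7% in Lg7742a, 6.12% on T and 26.7% in Sp9509. The lists differed widely in their number of 24 nt loci outside hairpins. There were 29904 in Wa8730, 6771 on M, 2247 in Lg7742a, 1856 on T and 1040 in Sp9509. More 24 nt loci give more neighbours by position alone, and the share to be had from their number was not computed. Any listed locus under 10 kb was found for fewer single-strand loci than loci on both strands: 45.9% and 62.4% in Lg7742a, 66.1% and 75.1% on M, 51.5% and 60.4% on T, 62.2% and 82.9% in Sp9509, 72.7% and 83.0% in Wa8730. Intervals did not overlap in any of these 5 cases. In each list single-strand 22 nt loci thus less often had a listed locus of any kind under 10 kb away. This did not hold for every kind of neighbour taken singly, and depth was not matched. A 21 nt locus was near 19.9% of the single-strand 22 nt loci in Lg7742a and 21.8% in Sp9509. For loci on both strands these shares were 37.6% and 53.9%. In Wa8730 the order was turned, at 17.4% and 10.3%. Hairpins were rarely near: 5 loci of Sp9509, 5 on T, 3 of Lg7742a, 1 on M and 0 of the 253 of Wa8730 had one under 10 kb away.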

How the data were processed

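Small RNA libraries were made from size-enriched RNA of whole fronds, 3 biological replicates of each of 4 accessions, per the labels' protocols. Tools named without a role in the submitters' processing notes are fastp 0.20.1 and deepTools. Loci carry ShortStack as their source in the deposited lists, whose names give all replicates together and assembly asm3v1 for Sp9509 and asm202106v1 for the other accessions. Values are counts of reads in each locus as deposited, all whole numbers, and were used without scaling. Alignment settings, the minimum for a locus and the strand threshold are not stated in the labels or lists used. The smallest count among the selected loci was 3 reads in both Lemna accessions, 4 in Wa8730 and 5 in Sp9509. Reads in loci came to 5005362, 5394332, 7197515 and 5649845 in Lg7742a, Lj8627, Sp9509 and Wa8730. The reads carry no molecular identifiers used here, so intervals cover counting error only.

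Loci were selected by size call, strand and chromosome, with mature and star lines left out. Shares were given Wilson intervals of 95%, ratios an interval from the binomial share. Named loci are the 5 deepest and the longest per list, the densest chromosome and the largest group of neighbours under 10 kb apart; others were chosen after their values were seen. The loci and this rule were chosen with earlier results of these data known. Alternatives were read minimums, scaled reads, whole assemblies, weights by reads and other distances. Python 3.11.15 with pandas 2.3.3, numpy 2.4.6, statsmodels 0.14.6 and matplotlib 3.10.9 was used, and the selection was tested on simulated lists. No per-sample column was left unused.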

Additional observations from a re-analysis of the deposited data

Results flagged for a closer look

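Signals of the same kind lay outside the numbered chromosomes, which the results above do not use, and exceeded the limit of 3 reads that a count of 0 allows. On scaffolds, single-strand 22 nt loci held 10947 reads in Lj8627, of which 10550 came from a minus locus of 2458 bp on scaffold52, 1415 reads in Wa8730 and 48 in Lg7742a. On chrC they held 5523 reads in Sp9509, 5391 in Wa8730, 30 in Lg7742a and 9 in Lj8627. On chrM of Lg7742a a locus held 5 reads. No control samples exist for these values, and listed loci all lie above the list's own minimum.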

How the results depend on the processing

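Of 143 values recomputed under alternatives, 79 stayed within the limits set for no change, 56 moved and 8 turned direction. A minimum of 5 reads left 230 loci in Lg7742a. A minimum of 10 reads left 82 in Lg7742a, 520 in Lj8627 and 128 in Wa8730, and a minimum of 100 left 11 in Lg7742a, 60 in Lj8627 and 44 in Sp9509, with 30 in Wa8730. After scaling each list to the smallest total, at least 10 scaled reads were held by 82 loci of Lg7742a, 465 of Lj8627, 133 of Sp9509 and 106 of Wa8730.

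The single-strand share in Lg7742a was 35.4% at 5 reads or more, 25.6% at 10, 17.5% at 100 and 25.6% at 10 scaled reads. In Lj8627 it was 30.7% at 10 reads, 39.7% at 100, 30.3% at 10 scaled reads and 38.3% by reads. In Sp9509 the same settings gave 35.0%, 64.7%, 35.7% and 94.7%. In Wa8730 it was 25.7% at 10 reads, 47.6% at 100 and 74.2% by reads.

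The plus share turned below 50% in Lg7742a at 10 reads or more (43.9%), at 100 (27.3%), at 10 scaled reads (43.9%) and by reads (15.6%). At 100 reads this rested on 11 loci, with an interval of 9.75 to 56.6 that holds 50%. At 10 reads or more it rested on 82 loci, for which no interval was computed. The intervals at 10 to 29 reads, 35.0 to 60.1, and at 30 to 99 reads, 21.4 to 67.4, hold 50% too. By reads the plus share also turned in Lj8627 (27.3%), on M (19.8%) and on T (44.8%), and it was 37.7% in Sp9509 and 48.0% in Wa8730. The values of Lj8627 and M rested on a single minus locus on chr2M with 47206 reads. Minus loci of M held 56286 reads with this locus, and plus loci 13915. In all of Lj8627 these were 72818 and 27329. The plus share by reads without this locus was not computed. By number of loci, the plus share in Lj8627 was 76.7%, 80% and 56.7% at minimums of 5, 10 and 100 reads. It was 78.5% at 10 scaled reads, and on T these values were 84.9%, 87.6%, 57.1% and 86.0%. In Wa8730 it was 46.7% at 100 reads. With multiples of 5 left out it was 69.6% in Lj8627. That alternative, and taking M and T apart, were chosen after seeing the data.

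The M to T ratio was 0.483, 0.290 and 0.714 at minimums of 5, 10 and 100 reads, 0.299 at 10 scaled reads and 0.712 per Mb. Counted in reads it turned to 2.34, and was 0.689 without the 10 deepest loci, of which the locus on chr2M holds the most reads. Leaving out each chromosome pair in turn gave 0.557 to 0.597.

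The neighbour share in Lg7742a was 18.2% at 100 reads, 1.64% under 1 kb and 8.47% under 50 kb. In Lj8627 it was 5.96% at 10 reads, 4.38% under 1 kb and 24.1% under 50 kb. In Sp9509 it was 40.9% at 100 reads, 7.56% under 1 kb and 25.6% under 50 kb, and in Wa8730 3.16% under 1 kb and 14.2% under 50 kb. Read minimums leave fewer loci by construction; the cause of the other changes was not tested.

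No paired analysis was possible because the deposited lists pool the 3 replicates of each accession, and leaving out a replicate was not run for the same reason. Loci of few reads can miss a strand by sampling, and the lists begin at different minimums, so numbers of loci depend on depth.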
